A study of Mus musculus with 18 samples.

Results

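The transition from acute to chronic endoplasmic reticulum (ER) stress was measured at the level of mRNA abundance in 6 mRNA-seq libraries of MIN6 cells. They came from cells exposed to cyclopiazonic acid (CPA) for 1 h (CPA1, acute stress) or for 18 h (CPA18, chronic stress), with 1 library of each kind in each of 3 independent experiments, called batches 1 to 3. These are 6 of the 18 libraries of the series, and they were chosen by treatment and assay alone. Of 17208 mouse genes with a read in any library, 10126 had a read in all 9 mRNA-seq libraries and were tested. MIN6 is a single mouse insulinoma line that makes and secretes insulin, so the 3 batches are repeats of 1 line and not separate animals. CPA was added at 200 µM directly to the culture medium. The control cells received DMSO, the solvent, for 18 h, so the 1 h exposure had no solvent control of its own duration. The mRNA-seq libraries were made from poly(A) RNA broken at random. The same cells gave 3 CPA1 and 3 CPA18 Ribo-seq libraries, in which the RNA fragments covered by ribosomes were read.

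CPA blocks the SERCA pumps that fill the ER with Ca2+, the ion that many folding enzymes of the ER need. Misfolded proteins then engage the unfolded protein response (UPR), which has 3 sensors. PERK phosphorylates eIF2α, which lowers general translation and raises the transcription factors ATF4 and CHOP, the core of the integrated stress response, while IRE1 with XBP1 and ATF6 raise chaperones, folding enzymes and the machinery of ER-associated degradation. A β cell is unusually dependent on this system because proinsulin makes up a large share of the protein it passes through the ER.

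The libraries held from 1241570 reads (CPA18, batch 1) to 4755030 reads (CPA18, batch 2) on annotated transcripts. A single gene, Lars2 (mitochondrial leucyl-tRNA synthetase), took 53.5%, 38.1% and 8.27% of the reads at CPA1 and 54.8%, 5.46% and 4.75% at CPA18 in batches 1 to 3. The share was high in both groups in batch 1, lower at CPA18 in batch 2 and low in both groups in batch 3. Levels are therefore given as CPM, the read count relative to a library total that was rescaled by TMM, a method that takes each library's scale from the bulk of its genes. With total counts as the scale, the median gene was 0.42 higher at CPA18 on the log2 scale, against -0.02 with TMM and -0.01 with totals that leave out Lars2, Ins1 and Ins2. The part of the Lars2 reads in the results was not tested. Whether all of these reads come from Lars2 mRNA was not tested either. The β-cell markers were present: all 15 β-cell markers were detected in every library and summed to between 110805 and 212327 CPM at CPA1. Of 17 markers of fibroblasts, endothelium and immune cells none had a read in every library, 6 had no read in any mRNA-seq library, and their sum was 5.67 to 12.3 at CPA1 and 2.93 to 6.78 at CPA18. In bulk RNA, fewer cells that express a gene and less of its RNA per cell cannot be told apart.

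From acute to chronic stress mRNAs changed in both directions, in a balance that depended on the scale. From CPA1 to CPA18, 1257 genes increased and 1225 decreased at an adjusted p under 0.05 (edgeR quasi-likelihood test with batch as a block), which is 24.5% of the genes tested, 12.4% upward and 12.1% downward. The increases reached 31.6-fold (Cdsn) and the decreases 27.3-fold (Nr4a1). TMM centres each library on the bulk of its genes, and with total counts as the scale 2487 genes increased and 473 decreased. The count of calls rests on the block and on batch 1, since 247 genes passed without the block and 1076 without batch 1, against 2482. No gene called in the fit reported here was called in the opposite direction in any of the other 16 fits. Increased genes had shorter transcripts than decreased genes (median 2065 and 3894 nt, against 2985 nt over all genes tested). With an offset for transcript length and GC content, 1033 genes increased and 1223 decreased, and 850 of the 1257 increased and 923 of the 1225 decreased genes kept their calls. Without batch 2 the log2 fold change was -5.83 for Nr4a1.

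**Figure D1:**
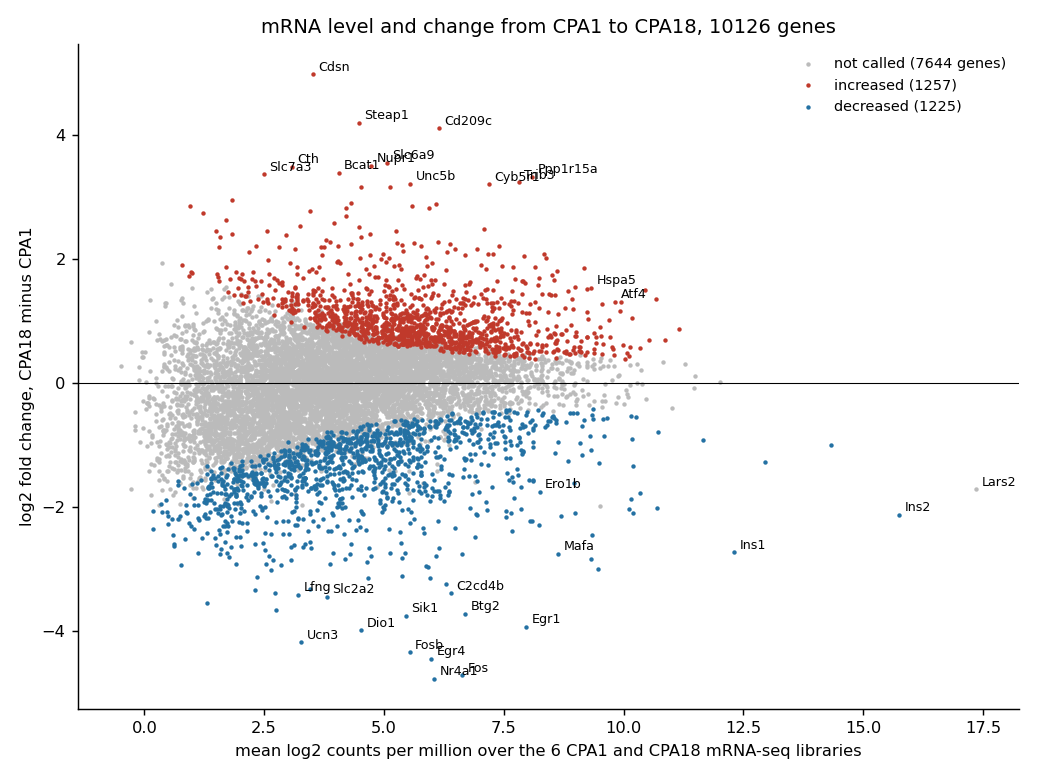
Each of 10126 points is a gene, with its mean level over the 6 CPA1 and CPA18 mRNA-seq libraries (log2 CPM) on the x axis and its log2 fold change from CPA1 to CPA18 on the y axis. Red points (1257) increased and blue points (1225) decreased at an adjusted p under 0.05. Ins1 and Ins2 lie among the most abundant genes that decreased. Lars2, the gene with the highest mean level by reads, did not pass.

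The 12 largest increases, chosen among genes with the same direction in all 3 batches and a mean of at least 5 RPKM, included regulators of stress signalling and genes of amino acid supply. Cdsn (corneodesmosin, a cell adhesion protein best known from skin) stood at 1.62, 3.22 and 1.48 CPM at CPA1 and 64.5, 81.2 and 55 at CPA18. Its log2 fold change was 4.98 ± 0.38 (SE, n = 3 per group), adjusted p = 4.2e-06. Values in parentheses after a gene are likewise its log2 fold change from CPA1 to CPA18 ± SE. The Cdsn transcript was close to the detection limit of 3 reads in all CPA1 libraries and clearly above it in all CPA18 libraries. Steap1, of a family of metalloreductases, had 1.62, 3.22 and 14.8 CPM at CPA1 and 107, 137 and 111 at CPA18 (4.19 ± 0.42, adjusted p = 2.8e-05). Cd209c, a C-type lectin gene from a cluster of similar genes that could share reads, had 17.8, 18.5 and 14.8 CPM at CPA1 and 362, 326 and 215 at CPA18 (4.11 ± 0.20, adjusted p = 3.3e-07). For these 3 genes the lowest CPA18 library lay several times above the highest CPA1 library. Without batch 2 the log2 fold change was 3.60 for Steap1. Without batch 3 the log2 fold change was 5.66 for Steap1.

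Of the regulators among the 12, Ppp1r15a and Trib3 were more abundant than these 3 genes, and Nupr1 was not. Ppp1r15a encodes GADD34, the subunit that directs a phosphatase to eIF2α, and had 65.6, 79.6 and 122 CPM at CPA1 and 620.5, 854 and 1217 at CPA18 (3.33 ± 0.15, adjusted p = 2.3e-07). Trib3, a pseudokinase induced by ATF4 and CHOP, had 44.5, 63.6 and 131 CPM at CPA1 and 498, 799 and 876 at CPA18 (3.24 ± 0.24, adjusted p = 3.3e-06). Nupr1, a small stress-induced chromatin protein, rose from 8.66 ± 6.66 to 99.7 ± 25.4 CPM (SD, n = 3). Batch 3 was the highest CPA1 library for all 3 genes, and the groups did not overlap for any of them. Over all genes tested, 11.9% had groups that did not overlap with CPA18 higher. A further 4 members handle amino acids: the glycine transporter Slc6a9 (3.55 ± 0.31), the cationic amino acid transporter Slc7a3 (3.37 ± 0.50), the cysteine-forming enzyme Cth (3.49 ± 0.37) and the branched-chain aminotransferase Bcat1 (3.39 ± 0.31). Cth illustrates the low starting level of this set, with 2.43, 1.61 and 3.46 CPM at CPA1 and 42, 25.2 and 25.1 at CPA18. The remaining members were the netrin receptor Unc5b (3.21 ± 0.22) and the reductase Cyb5r1 (3.21 ± 0.19). The 12 log2 fold changes ran from 3.21 to 4.98, and the largest adjusted p was 0.00047. All 12 were still called without the block and without batch 1. Without batch 2 the log2 fold change was 2.91 for Nupr1. Without batch 3 the log2 fold change was 4.40 for Nupr1 and 4.09 for Bcat1.

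The 12 largest decreases fell into 2 visible patterns. Nr4a1, an orphan nuclear receptor induced within minutes by many stimuli, had 395, 284 and 486 CPM at CPA1 and 4.89, 26.6 and 12 at CPA18, beside 35, 175 and 205 in the control. Its log2 fold change was -4.77 ± 0.48 (SE, n = 3 per group), adjusted p = 2.8e-05. Fos, the partner of JUN in AP-1, had 783, 584 and 281 CPM at CPA1 and 30.3, 12 and 19.9 at CPA18 (-4.72 ± 0.29, adjusted p = 1.7e-06), beside 107, 77.9 and 41.7 in the control. For both genes every CPA1 library was above every control library and every CPA18 library was below it. Ucn3, a peptide of mature β cells, had instead 32.4, 44.2 and 43 CPM at CPA1 and 2.93, 2.28 and 1.99 at CPA18 (-4.18 ± 0.29, adjusted p = 2.0e-06), beside 37.1, 56 and 44.2 in the control. The CPA1 values of Ucn3 were at or just under the control, and every CPA18 value was far below both. Slc2a2, the glucose transporter GLUT2, followed the second pattern with 67.2, 57.1 and 41 CPM at CPA1 and 2.93, 6.68 and 2.39 at CPA18 (-3.45 ± 0.37, adjusted p = 4.6e-05), beside 109, 37.8 and 48 in the control. So did the deiodinase Dio1, from 97.2 ± 35.6 to 5.95 ± 2.24 CPM (SD, n = 3). Without batch 2 the log2 fold change was -4.23 for Slc2a2.

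Of the 12, Nr4a1, Fos, Egr4, Fosb, Egr1, Sik1, Btg2 and C2cd4b lay above all control libraries in all CPA1 libraries. Lfng, a glycosyltransferase that modifies Notch, had 44.5, 69.2 and 10.9 CPM at CPA1 and 0.977, 3.34 and 5.58 at CPA18 and 22.7, 4.72 and 29.5 in the control, a wide spread, and its call (adjusted p = 0.0064) was lost without batch 1 (adjusted p = 0.093). The other 11 were called without batch 1, and all 12 without the block. In 11 of the 12, every CPA18 library was below every control library. Without batch 2 the log2 fold change was -3.81 for Egr4 and -2.49 for Lfng. Without batch 3 the log2 fold change was -5.16 for Egr4 and -4.24 for Lfng.

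**Figure D2:**
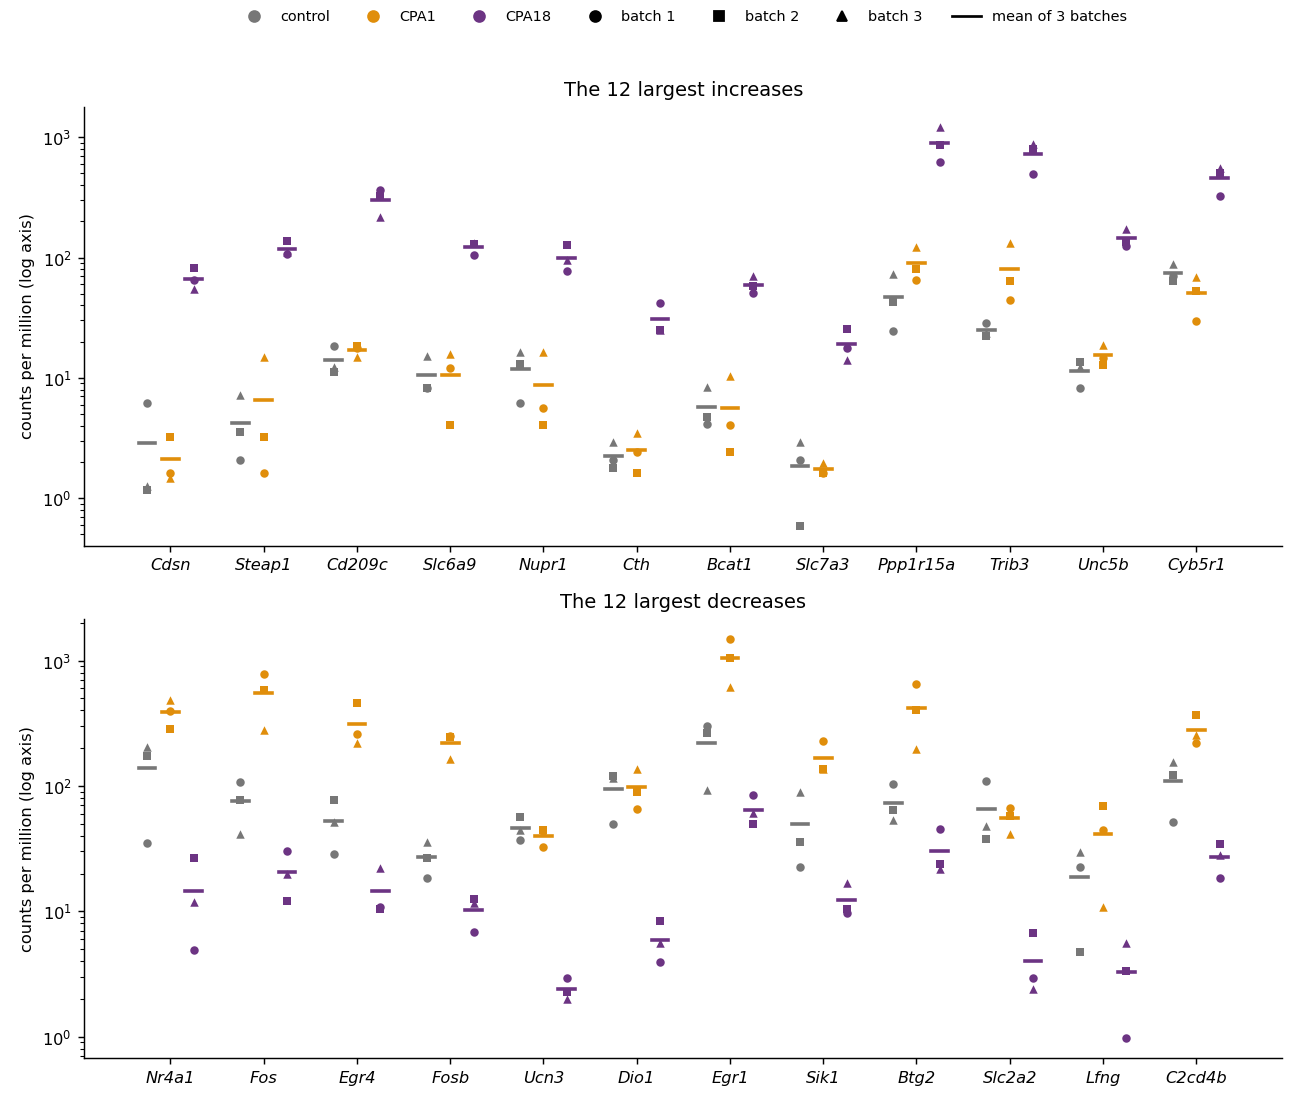
CPM (log axis) in each mRNA-seq library for the 12 largest increases (top) and the 12 largest decreases (bottom), with control in grey, CPA1 in orange and CPA18 in purple. Circles, squares and triangles are batches 1, 2 and 3 and bars are means of 3. CPA18 and CPA1 do not overlap for any of the 24 genes, which were chosen for large changes. Over all genes tested, 11.9% do not overlap with CPA18 higher and 10.7% with CPA18 lower. Ucn3, Dio1 and Slc2a2 are at the control level at CPA1 while Fos, Fosb and Egr1 are above it.

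Genes were next read in lists by function, described by counts and medians beside the 12.4% upward and 12.1% downward calls among all genes. The lists were drawn up with earlier results of these data known, so their counts are no test. Without the block most of these counts were much smaller. Genes described below, among them Hspa5, Atf4, Ero1b, Ins2 and Sqstm1, lost their calls without it as well. Of the 166 called genes that the naming rule gives, 58 kept their call without it. Immediate early genes encode transcription factors and feedback regulators that are switched on within minutes and whose mRNAs decay quickly. Of this list 1 of 32 tested members rose, 22 fell and 9 did not pass the test. Its median log2 change was -1.66 relative to all genes (-1.69 to -1.61 in the 3 batches), nearly the same in each. The transcription factors Egr1 (-3.94 ± 0.27), Egr4 (-4.45 ± 0.36), Fosb (-4.35 ± 0.29), Npas4 (-3.32 ± 0.30) and Junb (-2.39 ± 0.28) fell, as did the phosphatase gene Dusp1 (-2.34 ± 0.23). Egr1 alone went from 1049.5 ± 431 to 64.7 ± 17.6 CPM (SD, n = 3). Members fell by unequal amounts, since Jun fell by 1.51 on the log2 scale and its CPA18 values (90.9, 52.1 and 57) were above the control of the same batch (51.5, 37.8 and 11.8) in each batch. Jund (-0.12 ± 0.17, adjusted p = 0.65) and Ier5 (-0.20 ± 0.19, adjusted p = 0.48) did not pass. Myc was the member that rose (9.71, 2.41 and 2.96 CPM at CPA1 and 21.5, 9.41 and 11.2 at CPA18, 1.58 ± 0.36, adjusted p = 0.0082), though its CPA1 and CPA18 values overlapped and the call was lost without batch 1 (adjusted p = 0.0549). The summed level of the list was 1880 to 2847 CPM in the control, 5918 to 7693 at CPA1 and 1811 to 2300 at CPA18. The sum at CPA18 therefore overlapped the control range. Jun (adjusted p = 0.0508) lost the call without batch 1.

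The list for the arm of the UPR that runs through ATF4 and CHOP moved the other way. Of its 22 tested members 18 rose, 1 fell and 3 did not pass the test. The median log2 change was 1.55 above that of all genes (1.26 to 1.84 in the 3 batches). As for all lists, its members were chosen with earlier results of these data known, so the count is a description. The list holds Cdsn, the largest increase of all, which is not known for a part in this arm; without it 17 of 21 members rose and the median was 1.48 above that of all genes. Atf4 itself had 426, 505 and 880.4 CPM at CPA1 and 1014, 1659 and 1719 at CPA18 (1.31 ± 0.15, adjusted p = 9.1e-05), beside 122, 201 and 278 in the control. Ddit3, which encodes CHOP, had 38.9, 57.1 and 87.9 CPM at CPA1 and 161, 294 and 372 at CPA18 (2.16 ± 0.20, adjusted p = 1.5e-05), beside 18.5, 14.7 and 17.7 in the control. Both were above all control libraries after 1 h already and higher again at 18 h. Eif4ebp1, an inhibitor of the cap-binding protein eIF4E, rose without such an early step: it had 15.4, 19.3 and 47.9 CPM at CPA1 and 128, 234 and 226 at CPA18 (2.89 ± 0.28, adjusted p = 2.0e-05), beside 33, 25.4 and 38.3 in the control. Cebpb (2.20 ± 0.25), Sesn2 (1.67 ± 0.15), Stc2 (1.66 ± 0.30), Atf5 (1.28 ± 0.16) and Cebpg (1.26 ± 0.22) rose as well. Chac1, a glutathione-degrading enzyme, had 182, 199 and 431 CPM at CPA1 and 335, 509 and 565 at CPA18 and 26.8, 28.3 and 42.5 in the control, so most of its rise over the control on the log2 scale was present at CPA1. Its later change was 0.87 ± 0.17 (adjusted p = 0.0037), and this call was lost without batch 1 (adjusted p = 0.062). Bbc3, the pro-apoptotic PUMA (0.47 ± 0.36, adjusted p = 0.36), and Bcl2l11, BIM (-0.50 ± 0.29, adjusted p = 0.23), did not pass. Tnfrsf10b, the death receptor DR5, was the member that fell (11.3, 12.1 and 2.47 CPM at CPA1 and 1.95, 3.34 and 2.39 at CPA18, -1.48 ± 0.47, adjusted p = 0.038). It stood near the detection limit and its call was lost without batch 1 (adjusted p = 0.17). Tnfrsf10b (adjusted p = 0.26) did not pass without batch 2. The call of Tnfrsf10b (adjusted p = 0.16) was lost with total counts as the scale.

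Amino acid transporters and enzymes, many of them targets of ATF4, rose with it. Of this list 18 of 22 tested members rose, 1 fell and 3 did not pass the test, with a median log2 change 1.63 above that of all genes (1.28 to 1.92 in the 3 batches). The serine pathway was represented by Phgdh, which catalyses its opening step and had 29.1, 33.8 and 57.8 CPM at CPA1 and 124, 216 and 220.4 at CPA18 (2.24 ± 0.20, adjusted p = 1.5e-05), and by Psat1 (1.21 ± 0.18), Psph (2.02 ± 0.33) and Shmt2 (1.75 ± 0.20). Proline synthesis was represented by Pycr1 (2.26 ± 0.25) and Aldh18a1 (1.64 ± 0.20). Slc3a2 and Slc7a5, the heavy and light chains of the large neutral amino acid transporter, rose (2.01 ± 0.17 and 1.52 ± 0.14). Slc7a5 had 288, 327 and 484 CPM at CPA1 and 809, 1086 and 1206 at CPA18. Asns, asparagine synthetase, rose less (1.11 ± 0.20, adjusted p = 0.0021), and its call was lost without batch 1 (adjusted p = 0.066). The exception was Cbs, the enzyme upstream of Cth in cysteine synthesis, which fell: it had 100.4, 147 and 219 CPM at CPA1 and 36.2, 45.1 and 37.9 at CPA18 (-1.91 ± 0.22, adjusted p = 8.4e-05), beside 92.7, 116 and 198 in the control. Cth and Cbs, which act in sequence, thus moved in opposite directions in all 3 batches. Slc7a11, the cystine carrier (-0.40 ± 0.22, adjusted p = 0.2), and Slc38a2, a carrier of small neutral amino acids (-0.51 ± 0.26, adjusted p = 0.17), did not pass.

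Among the cytosolic aminoacyl-tRNA synthetases and their scaffold proteins, which load tRNAs with amino acids, 18 of 23 tested members rose, 0 fell and 5 did not pass the test, with a median log2 change 0.95 above that of all genes (0.68 to 1.15 in the 3 batches). Of the list, 8 increased without batch 1. Nars had 89.8, 72.4 and 47.4 CPM at CPA1 and 417, 197 and 195 at CPA18 (1.89 ± 0.18, adjusted p = 2.1e-05). It was followed by Tars (1.84 ± 0.23), Yars (1.47 ± 0.22) and Aimp1 (1.37 ± 0.19). Qars (-0.21 ± 0.19, adjusted p = 0.45), Dars (-0.42 ± 0.33, adjusted p = 0.37), Lars (0.78 ± 0.28, adjusted p = 0.062), Farsb (0.77 ± 0.31, adjusted p = 0.091) and Eef1e1 (0.85 ± 0.41, adjusted p = 0.15) did not pass.

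Of the genes for UPR sensors and their transcription factors, 6 of 14 tested members rose, 0 fell and 8 did not pass the test. These counts moved with the fit: 10 increased with total counts as the scale. Wfs1, an ER membrane protein needed by β cells, had 88.2, 77.2 and 112 CPM at CPA1 and 235, 377 and 433 at CPA18 (1.89 ± 0.17, adjusted p = 1.5e-05). Atf6 (1.41 ± 0.34), Creb3 (1.17 ± 0.20) and Xbp1 (0.93 ± 0.17) rose. For the sensors PERK (Eif2ak3, 0.68 ± 0.34, adjusted p = 0.16) and IRE1 (Ern1, 0.31 ± 0.24, adjusted p = 0.37) no change was called. Total counts cannot show the splicing of Xbp1 mRNA by IRE1. Atf6 (adjusted p = 0.097) did not pass without batch 1.

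ER chaperones and disulfide isomerases fold secretory proteins. Of this list 21 of 37 tested members rose, 3 fell and 13 did not pass the test, with a median log2 change 0.77 above that of all genes (0.71 to 0.97 in the 3 batches). Under other settings 1 decreased with total counts as the scale. Hspa5, the chaperone BiP that also holds the UPR sensors inactive, had 550.4, 389 and 248 CPM at CPA1 and 2106, 841 and 735 at CPA18 (1.53 ± 0.16, adjusted p = 3.7e-05), beside 665, 287 and 249 in the control. Batch 1 was the highest library in each group, and the level rose in each batch. Fkbp11 (2.49 ± 0.26), Creld2 (2.05 ± 0.17), Manf (1.85 ± 0.17) and Sdf2l1 (1.81 ± 0.17) rose most, and Calr, calreticulin, had 897, 831 and 1447 CPM at CPA1 and 2284, 2480.4 and 3184 at CPA18 (1.35 ± 0.14, adjusted p = 3.8e-05). P4hb, a protein disulfide isomerase, had 1153, 1486 and 2808 CPM at CPA1 and 2361, 3373 and 3684 at CPA18 (0.87 ± 0.16, adjusted p = 0.0024), so that its groups overlapped, and the call was lost without batch 1 (adjusted p = 0.066). At CPA1 the list sat slightly below the control (median of -0.23 to -0.07 in the 3 batches). The rise was thus not visible after 1 h.

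A smaller set of 3 folding genes fell. Ero1b, the oxidase of protein disulfide isomerases that is abundant in pancreatic islets, had 774, 562 and 400.0 CPM at CPA1 and 275, 144 and 114 at CPA18 (-1.76 ± 0.14, adjusted p = 5.1e-06), beside 910.4, 509 and 394 in the control. Its paralog Ero1a rose, with 33.2, 20.1 and 24.7 CPM at CPA1 and 98.7, 64.5 and 43.8 at CPA18 (1.34 ± 0.25, adjusted p = 0.0021). By length-scaled level (mean RPKM over the 6 libraries) Ero1b stood at 80.6 and Ero1a at 11.3, so the oxidase with the higher level decreased and the one with the lower level increased. Canx, calnexin, had 372, 321 and 224 CPM at CPA1 and 353, 201 and 145 at CPA18 (-0.46 ± 0.15, adjusted p = 0.039), with overlapping groups and no call when libraries were scaled to total counts (adjusted p = 0.9). Clgn, a calnexin relative, had 17.8, 10.5 and 6.91 CPM at CPA1 and 8.79, 3.79 and 4.38 at CPA18 (-1.08 ± 0.34, adjusted p = 0.036), and its call too was absent with total counts (adjusted p = 0.25) and without batch 1 (adjusted p = 0.12). Canx (adjusted p = 0.2) lost the call without batch 2. Canx (adjusted p = 0.26) and Clgn (adjusted p = 0.065) did not pass without batch 3.

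Promoter sequence was compared with these changes, because the response elements of the UPR are well known. RefSeq promoters (GRCm38.p6) were at hand for 8158 of the 10126 genes, and the 250 bases upstream of each start were searched on both strands for 4 motifs. These were the ER stress response element ERSE (CCAAT and CCACG with 9 bases between them, bound by NF-Y with ATF6 or XBP1), ERSE-II (ATTGG and CCACG with 1 base between them), the composite site of ATF4 with C/EBP proteins (TTGCATCA) and the cyclic AMP response element (TGACGTCA). ERSE and ERSE-II share their CCACG end, and no promoter held both. ERSE was present in 15 of the 8158 promoters (0.184%), in 10 of the 1041 promoters of increased genes (0.961%) and in 2 of the 950 of decreased genes (0.211%). In the chaperone list 8 of 31 promoters (25.8%) had it: Hspa5, Hsp90b1, Calr, Dnajc3, Creld2, Pdia6, and also Canx and Ero1b, which fell. Both decreased genes with an ERSE are thus folding genes. In the degradation list it was present in Syvn1 and Derl3. The composite site was present in 46 of 8158 promoters (0.564%), in 18 of 1041 of increased genes (1.73%) and in 3 of 950 of decreased genes (0.316%). The integrated stress response list had it in 4 of 19 promoters (21.1%; Chac1, Nupr1, Vldlr and Jdp2) and the amino acid list in 3 of 17 (17.6%; Pycr1, Got1 and Slc7a11). Slc7a11 has 2 copies and its mRNA did not pass the test. The cyclic AMP element served as a comparison and was found in 3.33% of all, 3.17% of increased and 3.16% of decreased genes. Among the lists it was present in 3 of 15 insulin and granule promoters (20%; Chgb, Scg2 and Pcsk1), 3 of 23 immediate early promoters (13%; Btg2, Maff and Dusp1) and 6 of 60 cytosolic ribosomal protein promoters (10%), and in none of the chaperone, degradation, ER entry, amino acid and aminoacyl-tRNA synthetase lists. Only exact matches were counted, so sites that differ from a motif in any fixed letter were left out. A match is a description of letters, and binding was not measured.

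The sequences below are 6 of these promoters, 250 bases up to the start site, 5′ to 3′ on the strand of the gene, with the ERSE, ERSE-II or composite site in capitals. They are shown because they set genes that rose (Hspa5, Creld2, Derl3, Herpud1, Nupr1) beside Ero1b, which has an ERSE and fell.
Hspa5, chr2:34771840-34772089, strand +: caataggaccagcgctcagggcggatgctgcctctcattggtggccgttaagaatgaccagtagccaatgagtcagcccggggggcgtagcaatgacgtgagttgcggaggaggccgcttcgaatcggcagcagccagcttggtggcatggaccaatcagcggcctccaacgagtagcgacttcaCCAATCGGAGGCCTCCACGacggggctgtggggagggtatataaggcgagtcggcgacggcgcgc
Creld2, chr15:88819396-88819645, strand +: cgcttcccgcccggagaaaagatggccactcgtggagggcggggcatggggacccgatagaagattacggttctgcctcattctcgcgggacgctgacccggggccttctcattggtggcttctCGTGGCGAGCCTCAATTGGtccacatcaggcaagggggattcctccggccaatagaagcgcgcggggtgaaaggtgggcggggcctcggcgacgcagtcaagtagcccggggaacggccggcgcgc
Derl3, chr10:75893148-75893397, strand +: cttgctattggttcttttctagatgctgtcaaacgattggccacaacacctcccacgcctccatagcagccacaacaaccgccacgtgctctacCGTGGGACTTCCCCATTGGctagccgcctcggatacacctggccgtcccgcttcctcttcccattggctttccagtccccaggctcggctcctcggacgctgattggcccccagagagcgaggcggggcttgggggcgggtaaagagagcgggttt
Ero1b, chr13:12565633-12565882, strand +: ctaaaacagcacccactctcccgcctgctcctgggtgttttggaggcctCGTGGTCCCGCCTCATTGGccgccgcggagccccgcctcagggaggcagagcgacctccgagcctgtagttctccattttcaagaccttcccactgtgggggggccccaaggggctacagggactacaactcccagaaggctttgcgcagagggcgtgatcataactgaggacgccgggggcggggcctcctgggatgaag
Herpud1, chr8:94386179-94386428, strand +: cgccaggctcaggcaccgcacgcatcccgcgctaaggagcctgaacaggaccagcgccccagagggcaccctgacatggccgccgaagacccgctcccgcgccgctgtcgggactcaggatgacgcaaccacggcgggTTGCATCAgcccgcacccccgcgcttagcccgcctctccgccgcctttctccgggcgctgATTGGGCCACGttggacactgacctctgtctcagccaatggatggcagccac
Nupr1, chr7:126625471-126625720, strand -: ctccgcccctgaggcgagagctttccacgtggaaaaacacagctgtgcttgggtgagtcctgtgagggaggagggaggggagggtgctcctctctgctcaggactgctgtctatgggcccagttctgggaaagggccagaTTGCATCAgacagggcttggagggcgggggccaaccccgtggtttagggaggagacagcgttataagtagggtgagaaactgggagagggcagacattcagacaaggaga
Hspa5 holds its exact ERSE match close to the start, on the strand of the gene. Creld2, Derl3 and Ero1b hold theirs farther upstream and on the opposite strand. Herpud1 holds a composite site and, nearer to the start, an ERSE-II.

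Genes of ER-associated degradation, which return misfolded proteins to the cytosol, rose in part: 17 of 41 tested members rose, 0 fell and 24 did not pass the test, with a median log2 change 0.52 above that of all genes (0.35 to 0.63 in the 3 batches). By comparison, 11 increased without batch 1. Herpud1, which organises the degradation complex at the membrane, had 285, 246 and 362 CPM at CPA1 and 685, 967 and 985 at CPA18 (1.55 ± 0.17, adjusted p = 5.2e-05), beside 128, 174 and 138 in the control. It was above all control libraries at CPA1, unlike Derl3, a channel component, which had 8.09, 4.83 and 10.9 CPM at CPA1 and 47.9, 88.3 and 81.3 at CPA18 (3.15 ± 0.30, adjusted p = 1.6e-05) and 4.12, 10.6 and 11.8 in the control. Erlin1 (2.25 ± 0.26), Ube2g2 (1.64 ± 0.15), Selenos, known earlier as Vimp (1.52 ± 0.19, adjusted p = 0.00016), and Derl2 (0.75 ± 0.16, adjusted p = 0.0064) rose. Sel1l, the scaffold of the ligase, had 123, 99 and 67.2 CPM at CPA1 and 278, 126 and 132 at CPA18 (0.82 ± 0.21, adjusted p = 0.016), and its call was lost without batch 1 (adjusted p = 0.15). No member of the list fell. Derl2 (adjusted p = 0.058) and Sel1l (adjusted p = 0.056) lost their calls without batch 3.

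The route into the ER had a higher share of called genes than the route out of it. For ER entry and N-glycosylation, 29 of 42 tested members rose, 0 fell and 13 did not pass the test, with a median log2 change 0.95 above that of all genes (0.66 to 1.13 in the 3 batches). In other fits 19 increased without batch 1. These included Dpagt1, which starts the glycan (1.76 ± 0.22), Ostc (1.61 ± 0.19) and Krtcap2 (1.43 ± 0.16) of the oligosaccharyltransferase, and Srprb of the signal recognition particle receptor (1.43 ± 0.19). Ostc had 106, 115 and 226 CPM at CPA1 and 358, 488 and 451 at CPA18. For vesicle traffic between ER and Golgi, 26 of 68 tested members rose, 0 fell and 42 did not pass the test, with a median log2 change 0.42 above that of all genes (0.31 to 0.54 in the 3 batches). Of the list, 11 increased without batch 1 and 41 increased with total counts as the scale. Kdelr3, a receptor that retrieves escaped chaperones, had 7.28, 5.63 and 7.41 CPM at CPA1 and 27.4, 35.7 and 33.1 at CPA18 (2.27 ± 0.36, adjusted p = 0.00081), and the cargo receptor Tmed9 rose by 1.42 ± 0.16. The 26S proteasome and its assembly factors gave 18 increases among 47 tested members and no decrease, with a median log2 change 0.51 above that of all genes (0.25 to 0.68 in the 3 batches). These counts moved with the fit: 5 increased without batch 1 and 33 increased with total counts as the scale. The assembly factors Psmg2 (1.57 ± 0.25) and Psmg1 (0.91 ± 0.20) rose, as did Psmd9 (1.12 ± 0.21). The difference between the entry and exit lists was not tested. Psmg1 (adjusted p = 0.061) did not pass without batch 1. The call of Psmg1 (adjusted p = 0.0502) was lost without batch 2.

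**Figure D3:**
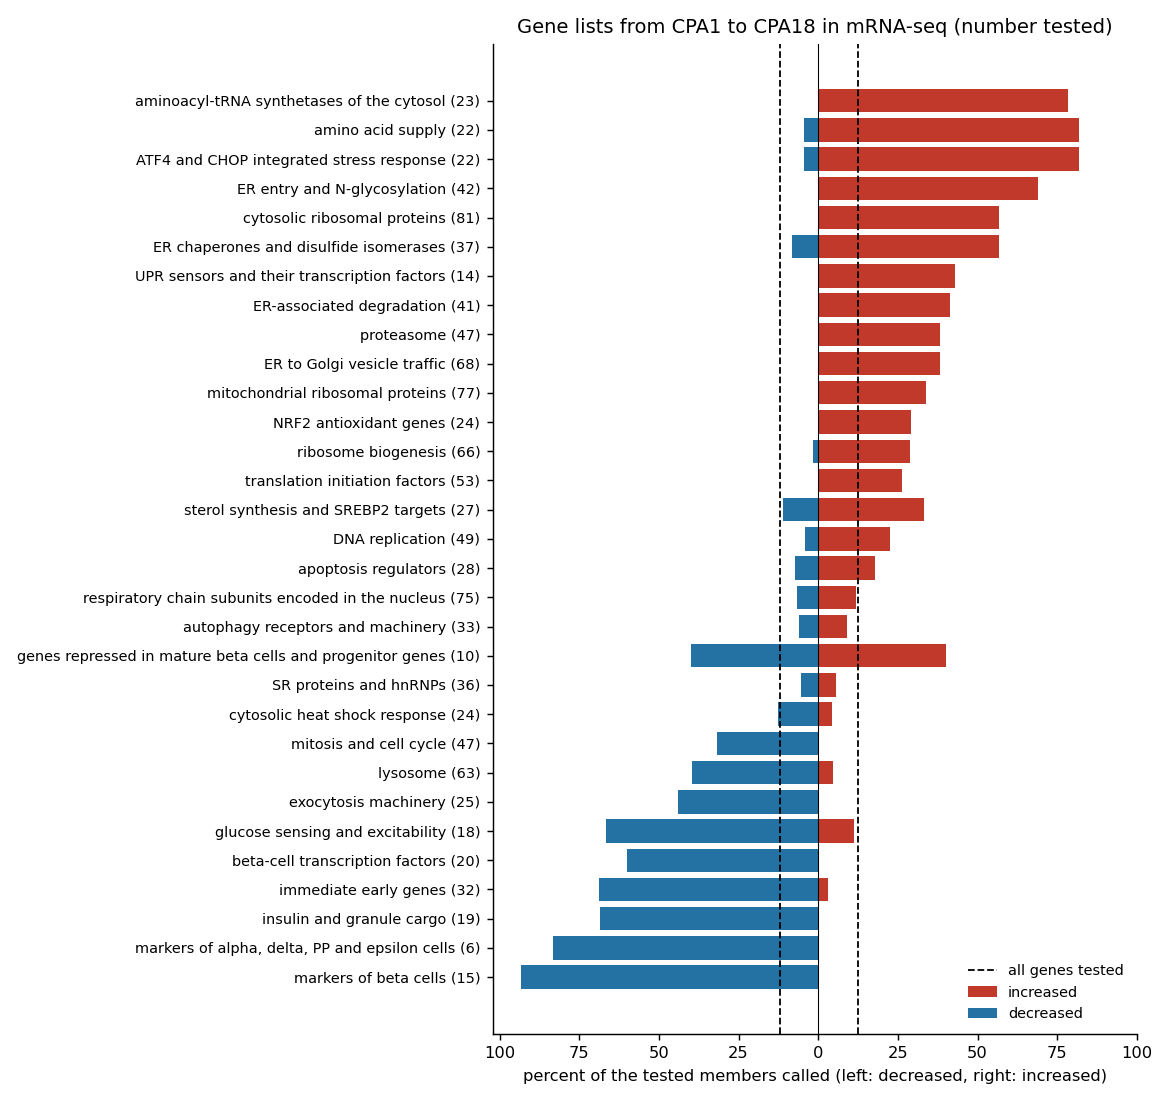
Percent of tested members called increased (red, right) or decreased (blue, left) from CPA1 to CPA18 for the 31 gene lists with at least 6 tested members, with the number tested in parentheses. Dashed lines mark the shares over all 10126 genes, 12.4% increased and 12.1% decreased; the integrated stress response and amino acid lists reach 18 of 22 increased, and 14 of 15 β-cell markers decreased.

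β-cell genes fell across the product, its processing and its regulators. Of insulin and granule cargo genes 0 of 19 tested members rose, 13 fell and 6 did not pass the test, with a median log2 change -1.26 relative to all genes (-1.70 to -1.07 in the 3 batches). Ins2 had 75726, 133848 and 148252 CPM at CPA1 and 16316, 33159.8 and 33664 at CPA18, and its log2 fold change was -2.13 ± 0.31 (SE, n = 3 per group), adjusted p = 0.0004. Ins1 had 8921, 16406 and 15299.8 CPM at CPA1 and 1179, 2501 and 2599 at CPA18 (-2.74 ± 0.21, adjusted p = 4.2e-06). Both were lower at CPA18 in all 3 batches, with no overlap of the groups, as for 10.7% of all genes tested. Their reads are uncertain in how they divide, because Ins1 and Ins2 are near-identical in their coding parts and the deposited counts list several transcripts of Ins2 with similar values. The shares of all reads taken by Ins1 and Ins2 together were 6.38%, 12.3% and 17.5% at CPA1 and 1.44%, 4.94% and 5.06% at CPA18.

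Processing enzymes fell as well. The proinsulin convertase Pcsk2 had 1868, 2206 and 3342 CPM at CPA1 and 617, 739.5 and 740.1 at CPA18 (-1.78 ± 0.16, adjusted p = 1.3e-05), and Pcsk1 had 91.5, 64.4 and 66.2 CPM at CPA1 and 25.4, 19.3 and 18.7 at CPA18 (-1.78 ± 0.21, adjusted p = 9.7e-05). Cpe, the carboxypeptidase that completes processing, had 3157, 2391 and 2750.0 CPM at CPA1 and 3131, 2737 and 3087 at CPA18, a change of 0.12 ± 0.15 (adjusted p = 0.59). Within the same pathway the convertases thus passed the test and the carboxypeptidase did not. The zinc carrier Slc30a8 (-1.57 ± 0.14), the granule proteins Scg2 (-2.03 ± 0.14), Chga (-1.28 ± 0.18) and Ptprn2 (-1.58 ± 0.15) and the peptide Npy (-1.87 ± 0.20) fell. Iapp, amylin, had 20401, 29262 and 42083 CPM at CPA1 and 12693, 18461 and 12988 at CPA18 (-1.01 ± 0.25, adjusted p = 0.013), and its call was absent when libraries were scaled to total counts (adjusted p = 0.2). Ptprn (0.11 ± 0.15, adjusted p = 0.61), Pcsk1n (-0.29 ± 0.14, adjusted p = 0.15), Scg5 (-0.30 ± 0.15, adjusted p = 0.17), Pam (-0.31 ± 0.29, adjusted p = 0.46) and Vgf (adjusted p = 0.97) did not pass. Iapp (adjusted p = 0.06) did not pass without batch 3.

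Among β-cell transcription factors 0 of 20 tested members rose, 12 fell and 8 did not pass the test, with a median log2 change -1.43 relative to all genes (-1.88 to -1.42 in the 3 batches). Mafa, an activator of the insulin genes in mature β cells, had 972, 986 and 1139 CPM at CPA1 and 127, 158 and 179.7 at CPA18 (-2.76 ± 0.19, adjusted p = 2.0e-06), beside 571, 843 and 1399 in the control. Pdx1 had 404, 412 and 385 CPM at CPA1 and 124, 109 and 101 at CPA18 (-1.85 ± 0.13, adjusted p = 2.5e-06). Mnx1 fell most, with 118, 102 and 178 CPM at CPA1 and 7.82, 13.1 and 23.5 at CPA18 (-3.12 ± 0.24, adjusted p = 4.2e-06), followed by Rfx6 (-2.75 ± 0.38), Isl1 (-2.19 ± 0.22), Pax6 (-2.14 ± 0.20), Nkx2-2 (-2.10 ± 0.31, adjusted p = 0.00047), Neurod1 (-2.05 ± 0.22) and Nkx6-1 (-1.66 ± 0.21). Insm1, another member of the list, had 596, 432 and 498 CPM at CPA1 and 576, 403 and 507 at CPA18 (-0.04 ± 0.12, adjusted p = 0.84). The groups of Insm1 overlapped, while every CPA18 value of Pdx1 was below every CPA1 value.

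For glucose sensing and excitability 2 of 18 tested members rose, 12 fell and 4 did not pass the test, with a median log2 change -1.31 relative to all genes (-1.71 to -1.07 in the 3 batches). Under other settings 1 increased without batch 1, 7 decreased without batch 1 and 7 decreased with total counts as the scale. The list holds Dio1, the thyroid hormone enzyme described above; without it 11 of 17 members fell and the median was -1.26 relative to all genes. G6pc2, the islet glucose-6-phosphatase, had 1231, 692 and 765 CPM at CPA1 and 315, 146 and 163 at CPA18 (-2.15 ± 0.13, adjusted p = 1.7e-06). The incretin receptor Glp1r (-2.27 ± 0.24, adjusted p = 3.5e-05), the fatty acid receptor Ffar1 (-1.99 ± 0.34) and the calcium channel gene Cacna1d (-2.12 ± 0.50) fell. The 2 subunits of the ATP-sensitive potassium channel gave different calls, and the difference between them was not tested: Abcc8 had 274, 250.2 and 339 CPM at CPA1 and 124, 136 and 107 at CPA18 (-1.22 ± 0.16, adjusted p = 0.00025) and Kcnj11 had 113, 167 and 209 CPM at CPA1 and 139, 196 and 159 at CPA18 (0.05 ± 0.17, adjusted p = 0.87). Kcnj11 was the only one of the 15 β-cell markers that did not pass, the other 14 having decreased. Kcnh2 (0.99 ± 0.30) and the somatostatin receptor Sstr3 (0.94 ± 0.22) rose. Ffar1 (adjusted p = 0.0518), Cacna1d (adjusted p = 0.067) and Sstr3 (adjusted p = 0.057) lost their calls without batch 1. Kcnh2 (adjusted p = 0.16) did not pass without batch 2. The call of Kcnh2 (adjusted p = 0.17) was lost without batch 3.

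Of the exocytosis machinery 0 of 25 tested members rose, 11 fell and 14 did not pass the test, with a median log2 change -0.86 relative to all genes (-1.06 to -0.66 in the 3 batches). Rph3al, a Rab effector on granules (-2.57 ± 0.32, adjusted p = 0.00013), the calcium sensor Syt7 (-2.21 ± 0.25, adjusted p = 5.8e-05), the complexin Cplx2 (-1.63 ± 0.20) and Sytl4 (-1.47 ± 0.19), also known as granuphilin, fell most. Rph3al had 21, 26.5 and 31.1 CPM at CPA1 and 4.89, 3.34 and 6.38 at CPA18. By comparison, 3 increased with total counts as the scale, 7 decreased without batch 1 and 6 decreased with total counts as the scale. No tested member of the marker list for the other islet endocrine cells rose. Whether its members are particular to those cells was not tested. Of 15, the 6 that could be tested gave 5 decreases: Cltrn (-2.95 ± 0.19), Ttr (-2.84 ± 0.25), Etv1 (-2.05 ± 0.32), Irx1 (-1.95 ± 0.57) and the glucagon gene Gcg, whose call was lost with total counts and without batch 1. The summed level of the 15 was 1478 to 3214 CPM at CPA1 and 275 to 389 at CPA18. Of 18 acinar and duct markers, Krt7 was the 1 that could be tested, and it fell (-0.61 ± 0.14, adjusted p = 0.0078). Lysosomal genes had more decreases than increases: 3 of 63 tested members rose, 25 fell and 35 did not pass the test, with a median log2 change -0.56 relative to all genes (-0.79 to -0.32 in the 3 batches). In other fits 1 increased without batch 1, 6 increased with total counts as the scale and 4 decreased with total counts as the scale. Lamp2, a membrane protein of the lysosome, had 140.0, 86.1 and 63.7 CPM at CPA1 and 52.8, 32.2 and 20.3 at CPA18 (-1.49 ± 0.18, adjusted p = 0.00011), and the sulfatase Arsb had 119, 80.5 and 79 CPM at CPA1 and 44, 27.6 and 27.9 at CPA18 (-1.49 ± 0.19, adjusted p = 0.00017). Both kept their calls under each of these settings, but lost them without the block, where 0 members of the list decreased. Npc1, the lysosomal cholesterol exporter, rose (0.87 ± 0.23). Irx1 (adjusted p = 0.091) did not pass without batch 1. The calls of Irx1 (adjusted p = 0.35) and Npc1 (adjusted p = 0.0543) were lost without batch 2. Krt7 (adjusted p = 0.097) and Npc1 (adjusted p = 0.052) lost their calls without batch 3. Irx1 (adjusted p = 0.057) and Krt7 (adjusted p = 0.59) did not pass with total counts as the scale. Without batch 2 the log2 fold change was -1.02 for Irx1. Without batch 3 the log2 fold change was -2.79 for Irx1.

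In the lists of the translation apparatus increases far outnumbered decreases, though outside the cytosolic ribosome most members did not pass. For cytosolic ribosomal proteins 46 of 81 tested members rose, 0 fell and 35 did not pass the test, with a median log2 change 0.48 above that of all genes (0.15 to 0.69 in the 3 batches). Of the list, 8 increased without batch 1, 76 increased with total counts as the scale and 0 increased without the block. Of these 81 genes, 72 were higher in all 3 batches, against 29% of all genes tested. Ribosomal protein genes have many processed copies, so reads on single members are uncertain. Rpl12 (1.35 ± 0.14), Rpl22l1 (1.12 ± 0.27) and Rps12 (0.86 ± 0.14) rose most. Mitochondrial ribosomal proteins gave 26 increases and no decrease among 77 tested. These counts moved with the fit: 3 increased without batch 1, 47 increased with total counts as the scale and 0 increased without the block. Genes of ribosome biogenesis gave 19 increases among 66, led by Gar1 (1.87 ± 0.35) and Rrp12 (1.42 ± 0.26), and a decrease of Dkc1 (-1.32 ± 0.38). Under other settings 10 increased without batch 1, 35 increased with total counts as the scale and 0 increased without the block. Of the translation initiation factors and their regulators 14 of 53 rose and none fell, with Eif1, which guards start codon choice, at 513, 595 and 894 CPM at CPA1 and 1092, 1658 and 1717 at CPA18 (1.17 ± 0.15, adjusted p = 0.00019). By comparison, 24 increased with total counts as the scale. SR proteins and hnRNPs, which process pre-mRNA, had 2 increases (Srsf2 0.84 ± 0.25, Ptbp1 0.49 ± 0.14) and 2 decreases (Hnrnph2 -1.72 ± 0.32, Hnrnpu -0.84 ± 0.20) among 36 tested. Both shares of this list were below those over all genes tested (12.4% and 12.1%). In other fits 0 increased without batch 1, 9 increased with total counts as the scale and 1 decreased without batch 1. The calls of Rpl22l1 (adjusted p = 0.074), Dkc1 (adjusted p = 0.08), Srsf2 (adjusted p = 0.076), Ptbp1 (adjusted p = 0.11) and Hnrnpu (adjusted p = 0.057) were lost without batch 1. Dkc1 (adjusted p = 0.12), Srsf2 (adjusted p = 0.17), Ptbp1 (adjusted p = 0.15) and Hnrnpu (adjusted p = 0.0525) lost their calls without batch 2. Dkc1 (adjusted p = 0.057), Srsf2 (adjusted p = 0.092) and Ptbp1 (adjusted p = 0.073) did not pass without batch 3. The calls of Dkc1 (adjusted p = 0.17) and Hnrnpu (adjusted p = 0.33) were lost with total counts as the scale.

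Proliferation genes were read as a mitosis and a replication list, and the difference between them was not tested. Of mitosis and cell cycle genes 0 of 47 tested members rose, 15 fell and 32 did not pass the test, with a median log2 change -0.55 relative to all genes (-0.55 to -0.40 in the 3 batches). Of the list, 4 increased with total counts as the scale, 9 decreased without batch 1 and 5 decreased with total counts as the scale. Mki67 (-1.63 ± 0.34, adjusted p = 0.0045), Top2a (-1.45 ± 0.31, adjusted p = 0.0056) and the inhibitor Cdkn2c (-1.56 ± 0.14, adjusted p = 1.3e-05) fell, as did the stress-regulated kinase gene Plk2 (-1.71 ± 0.41). Cdkn2c had 399.8, 456 and 592 CPM at CPA1 and 112, 179 and 202 at CPA18. Of DNA replication genes 11 of 49 tested members rose, 2 fell and 36 did not pass the test, with the polymerase subunit Pold2 (1.36 ± 0.23) and the origin factor Cdc6 (1.25 ± 0.29) among those that rose. These counts moved with the fit: 2 increased without batch 1 and 20 increased with total counts as the scale. The replication list thus had as many increases as decreases without batch 1, and in Ribo-seq it gave 3 increases and 10 decreases among 45 tested. The mitosis list gave 0 increases and 19 decreases among 43 in Ribo-seq. Top2a (adjusted p = 0.075), Plk2 (adjusted p = 0.0546) and Cdc6 (adjusted p = 0.081) lost their calls without batch 1.

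Among the other stress and metabolic lists, increases outnumbered decreases for NRF2 antioxidant genes (7 and 0) and for sterol genes (9 and 3). Over all genes tested, 12.4% increased and 12.1% decreased. The shares of the respiratory chain, autophagy and cytosolic heat shock lists were near or below these. Their median log2 changes relative to all genes were 0.06, 0.05 and -0.04, and that of the apoptosis list was 0.04. Apoptosis regulators gave 5 increases and 2 decreases among 28 tested, with Trp53 (1.29 ± 0.24) and Diablo (0.89 ± 0.15) rising and Dapk1 falling (-1.28 ± 0.35). The other decrease was Tnfrsf10b, which the integrated stress response list holds too. Under other settings 2 increased without batch 1, 8 increased with total counts as the scale and 0 decreased without batch 1. NRF2 antioxidant genes gave 7 increases and no decrease among 24, with the largest rise for Hmox1, heme oxygenase (25.1, 42.6 and 66.2 CPM at CPA1 and 131, 243 and 233 at CPA18, 2.17 ± 0.36, adjusted p = 0.001). By comparison, 4 increased without batch 1 and 11 increased with total counts as the scale. Sqstm1, the autophagy receptor p62, had 591, 816 and 1177 CPM at CPA1 and 1653, 2666 and 2917 at CPA18 (1.50 ± 0.14, adjusted p = 1.5e-05), and the autophagy list gave 3 increases and 2 decreases among 33. In other fits 1 increased without batch 1, and with total counts as the scale 11 increased and 0 decreased. In the cytosolic heat shock list Hspe1 rose (0.73 ± 0.18) and Bag3 (-0.98 ± 0.29), Dnajb1 (-0.92 ± 0.17) and Hsp90aa1 (-0.87 ± 0.15) fell, of 24 tested. Of the list, 5 increased with total counts as the scale and 0 decreased with total counts as the scale. The ER chaperone list had 21 increases and 3 decreases in 37 members, and the cytosolic list 1 and 3 in 24. Sterol genes gave 9 increases, among them Lss (1.55 ± 0.20), Msmo1 (1.31 ± 0.21), Fdps (1.30 ± 0.17) and Sqle (1.29 ± 0.17), and 3 decreases, among them Stard4 (-0.72 ± 0.24), of 27 tested. These counts moved with the fit: 5 increased without batch 1, 1 decreased without batch 1 and 0 decreased with total counts as the scale. Nuclear-encoded respiratory chain genes gave 9 increases and 5 decreases among 75, with Cox6a2 (2.35 ± 0.34), Uqcrq (1.48 ± 0.15) and Atp5g1 (1.32 ± 0.17) rising and Atp5l (-0.68 ± 0.16) and Cox6c (-0.60 ± 0.16) falling. Under other settings 3 increased without batch 1, 23 increased with total counts as the scale and 0 decreased with total counts as the scale. Dapk1 (adjusted p = 0.09), Tnfrsf10b (adjusted p = 0.17), Hspe1 (adjusted p = 0.12) and Stard4 (adjusted p = 0.12) did not pass without batch 1. The calls of Dapk1 (adjusted p = 0.16), Tnfrsf10b (adjusted p = 0.26), Hspe1 (adjusted p = 0.07) and Stard4 (adjusted p = 0.36) were lost without batch 2. Bag3 (adjusted p = 0.081), Stard4 (adjusted p = 0.061), Atp5l (adjusted p = 0.14) and Cox6c (adjusted p = 0.23) lost their calls without batch 3. Dapk1 (adjusted p = 0.16), Tnfrsf10b (adjusted p = 0.16), Bag3 (adjusted p = 0.19), Dnajb1 (adjusted p = 0.17), Hsp90aa1 (adjusted p = 0.19), Stard4 (adjusted p = 0.56), Atp5l (adjusted p = 0.43) and Cox6c (adjusted p = 0.59) did not pass with total counts as the scale.

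A list of genes silenced in mature β cells or active in progenitors had 10 tested members of 28, of which 4 rose and 4 fell. By comparison, 1 increased without batch 1. Lmo4, a LIM-domain cofactor, had 6.48, 4.83 and 2.47 CPM at CPA1 and 46.9, 17.3 and 29.1 at CPA18 (2.77 ± 0.35, adjusted p = 0.00017), and the lactate carrier Slc16a1 rose (1.39 ± 0.39). Ldha, lactate dehydrogenase, fell instead, with 21.9, 45.9 and 78 CPM at CPA1 and 0.977, 21.7 and 16.3 at CPA18 (-1.94 ± 0.34, adjusted p = 0.0015), and so did the gastrin gene Gast (-2.62 ± 0.28) and Cck (-0.93 ± 0.20). The 18 members without a read in every library could not be judged at this depth. The call of Slc16a1 (adjusted p = 0.22) was lost without batch 1. Slc16a1 (adjusted p = 0.083) lost the call without batch 3. Cck (adjusted p = 0.16) did not pass with total counts as the scale.

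The level at CPA18 was also set beside the control, as a description, since the control was used in the fit to estimate the spread but not in the comparison. The increased and decreased sets were chosen by their change between these same CPA1 and CPA18 libraries. Their counts against the control follow in part from that choice. Among the 1257 increased genes, 734 were above all control libraries at CPA18, against 13.4% of all genes tested. At CPA1, 37 were above them, against 3.44% of all. Among the 1225 decreased genes, 606 were below all control libraries at CPA18, against 9.67% of all. At CPA1, 14 were below them, against 1.71% of all, and 55 were above them, against 3.44% of all. For both sets the shares at CPA1 were close to those over all genes. Of 22 decreased immediate early genes 16 were above all control libraries at CPA1, and 11 were below them at CPA18. Of 14 decreased β-cell markers none was above at CPA1 and all 14 were below at CPA18. The median of the decreased β-cell markers relative to the control of the same batch was -0.04 to 0.10 at CPA1 and -2.01 to -1.93 at CPA18 on the log2 scale. The control library of batch 2 has a title and a description that name different assays. The title was followed, and without this library 1237 genes increased and 1569 decreased from CPA1 to CPA18.

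**Figure D4:**
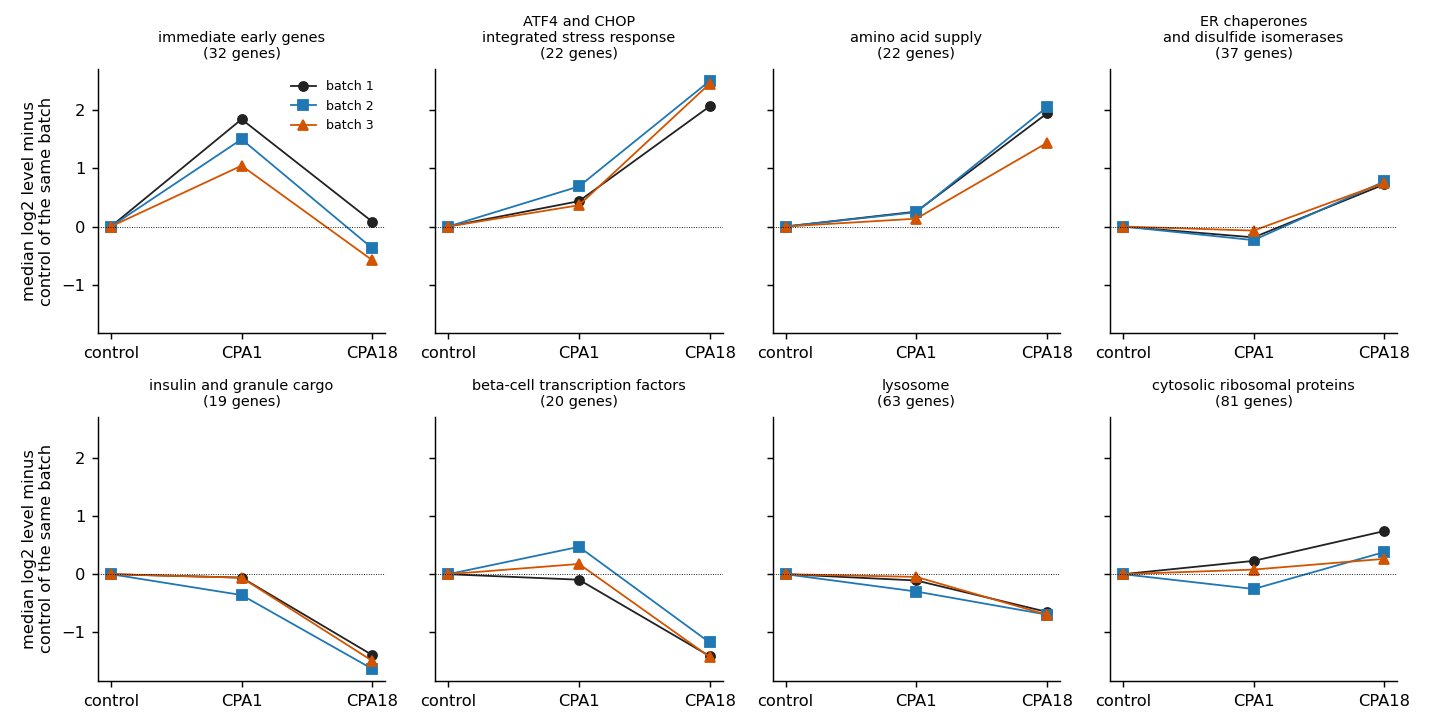
Median over the tested members of 8 gene lists of the log2 level minus the control of the same batch, at control (0 by construction), CPA1 and CPA18, with 1 line for each of the 3 batches. Immediate early genes are at 1.05 to 1.84 at CPA1 and return to -0.58 to 0.08, whereas insulin and granule genes stay at -0.36 to -0.06 at CPA1 and reach -1.63 to -1.39 at CPA18.

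Ribosome-bound RNA gave a second readout from other libraries, made by the study's methods from the same lysates. Of 7794 genes with reads in all libraries of both assays, 691 increased and 794 decreased in Ribo-seq from CPA1 to CPA18 (8.87% and 10.2% of the genes tested). Of the 1152 of them that increased in mRNA-seq, 491 increased in Ribo-seq, which is 42.6% of the mRNA-seq calls and 71.1% of the Ribo-seq calls. Of the 984 that decreased, 538 decreased in Ribo-seq, which is 54.7% and 67.8%. A single gene was called in opposite directions. Across genes, which are not independent replicates and share cultures, Pearson's r of both changes was 0.72 and Spearman's rho 0.67. All 11 of the largest increases and all 11 of the largest decreases that could be tested were called in the same direction in Ribo-seq, Bcat1 and Lfng having too few reads. The integrated stress response list gave 16 increases among 19 in Ribo-seq, and insulin and granule cargo gave 13 decreases among 19.

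The 2 readouts differed in size for some lists. Ribosomal protein genes had 46 of 81 increases in mRNA-seq and 77 of 81 in Ribo-seq, with medians relative to all genes of 0.43 and 1.12. These medians, unlike those above, cover the members and the 7794 genes tested in both assays. For the 29 immediate early genes the medians were -1.55 in mRNA-seq and -1.59 in Ribo-seq, and for the 16 glucose sensing genes -1.29 and -0.55. Ucn3 had a log2 fold change of -4.18 in mRNA-seq and of -2.12 in Ribo-seq, and Atf4 rose by 1.31 and 0.69. Canx, called decreased in mRNA-seq, had 0.34 in Ribo-seq (adjusted p = 0.17). The differences between the assays were not tested here.

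**Figure D5:**
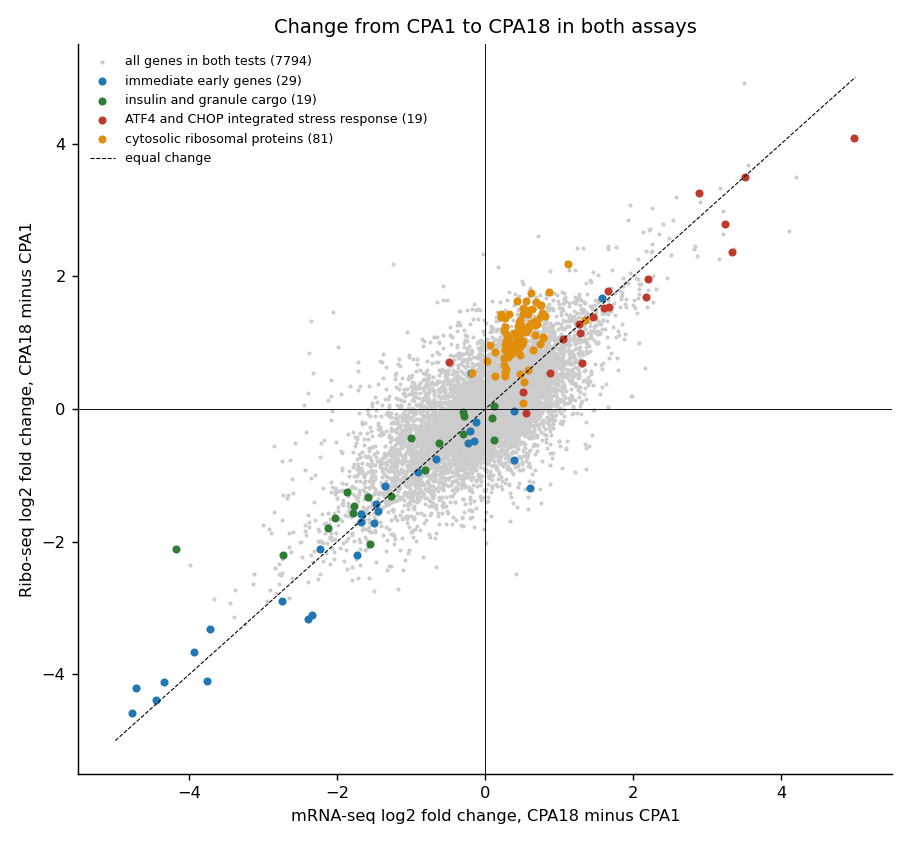
Log2 fold change from CPA1 to CPA18 in mRNA-seq (x axis) and Ribo-seq (y axis) for 7794 genes (grey), with 4 lists in colour and the line of equal change dashed. Immediate early genes (blue) and integrated stress response genes (red) lie along the line at either end, and ribosomal protein genes (orange) lie above it, with medians relative to all genes over these genes of 0.43 in mRNA-seq and 1.12 in Ribo-seq.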

How the data were processed

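MIN6 cells were profiled by mRNA-seq and Ribo-seq in 3 batches. According to the methods of the study, the authors kept reads of high quality and aligned them with Bowtie2 (version not given in the sources used here) to mouse RefSeq RNA of GRCm38. The deposited files give, per transcript and library, whole-number counts, the RPM and RPKM values that the authors derived from them, and transcript length. RPM and length served only to check the RPKM, and RPKM served for 2 alternative tests and for a rule on named genes. Samples were grouped by their titles.

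Counts of 30741 transcripts were summed to 17208 genes (30227 transcripts were joined to RefSeq with and 478 without their version, 36 were not joined). Genes with at least 1 read in all 9 mRNA-seq libraries were tested with edgeR 4.0.16 (R 4.3.3): TMM scaling, treatment and batch as terms, all 9 libraries sharing 1 estimate of spread, quasi-likelihood test of CPA18 minus CPA1, Benjamini-Hochberg adjustment over all 10126 genes and a threshold of 0.05. Standard errors are the log2 fold change divided by the square root of the test statistic. Ribo-seq was fitted in the same way over 7794 genes. Because batches are named in the labels, batch was a block: deviations from group means correlated within batches (mean r = 0.53, range 0.20 to 0.70 over 9 pairs of mRNA-seq libraries). With 3 against 3 samples an exact permutation test of a single gene cannot go below p = 0.1, so only the model across genes was used. The p-values measure the spread between 3 experiments on 1 cell line. The depth of a library sets its detection limit: 3 reads are 0.63 to 2.42 CPM by total counts in the CPA18 and CPA1 libraries. This limit covers counting error only.

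Alternatives were no batch block, other scalings, DESeq2 1.42.0, limma 3.58.1 on log2(RPKM + 0.5) and log2(RPKM + 1), other filters on low counts (none, or at least 10 reads), fewer libraries, and an offset for transcript length and GC content (GC known for 99.3% of genes). The fit was also run on counts simulated from its own means and dispersions, which cannot show that the model suits these libraries. The 33 gene lists and the members were chosen with earlier results of these data known, so that list counts are descriptions. Named genes were the 12 largest changes in each direction with the same sign in all batches and a mean of at least 5 RPKM, up to 4 called members of each list in each direction, the genes the study names, and members that did not pass. Further list members were added after their values were seen: in the integrated stress response list Atf5, Cebpb, Cebpg, Sesn2, Stc2, Chac1 and Vldlr, and others that are given with a log2 fold change alone. Cdsn and Dio1 belong to lists whose pathway they are not known for, so both list counts are also given without them. Some named genes are not reported here.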

Additional observations from a re-analysis of the deposited data

How the results depend on the processing

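No called gene was called in the opposite direction under any alternative. Of the 166 called genes that the naming rule gives, 127 to 141 kept their call when a batch was left out, 58 without the replicate block, 142 with total counts as the scale, 149 with the offset for length and GC content, 155 with DESeq2 and 161 to 165 with the other scalings. Without the replicate block, which ignores that libraries of a batch deviate together, 247 genes passed (101 increased, 146 decreased). With total counts as the scale, 2487 increased and 473 decreased; all 1257 increased genes and 469 of the 1225 decreased genes kept their calls, and 1212 and 468 did under all 4 other scalings. With limma 2155 increased and 348 decreased on log2(RPKM + 0.5), and 2148 and 327 on log2(RPKM + 1); RPKM rests on total counts. The counts with a batch left out ranged from 1076 (without batch 1) to 1930 changed genes, from 450 to 939 increased and from 626 to 991 decreased. Without batch 2, 1580 genes passed, 688 of them increased. Without a filter, 2793 of 16916 genes passed; with at least 10 reads in every library, 1762 of 4404; with only the 6 CPA libraries, 2956; without the control library of batch 2, 2806, of which 1237 increased and 1569 decreased. In Ribo-seq, total counts gave 1322 increases and 430 decreases, DESeq2 gave 521 decreases, and at least 10 reads in every library gave 974 calls of 2497 genes, 430 of them increased. With a batch left out the Ribo-seq counts ranged from 850 to 1215, with 379 to 603 increases and 471 to 612 decreases, and without the replicate block 1150 genes passed. Apart from fewer genes or libraries, the cause of these shifts was not tested. Medians of lists relative to all genes moved by more than their spread between batches in 0 to 8 of 32 lists under each alternative.

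The depth limits low genes: a count of 3 reads is 0.63 to 2.42 CPM by total counts in the CPA libraries, so the fold changes of genes near this level at CPA1, such as Cdsn, Cth and Steap1, are uncertain in size. When a batch was left out, the log2 fold change of Steap1 ranged from 3.60 to 5.66 and that of Nr4a1 from -5.83 to -4.33.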

Other observations

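Genes without a read in every mRNA-seq library were left out of the tests above. Among 6790 such genes with a read in some mRNA-seq library, 531 lacked reads only in the control of batch 1, the shallowest library (520960 reads). A fit without the filter called 89 of the 6790 increased and 138 decreased from CPA1 to CPA18. The genes named here were chosen after their values were seen. A set of 6 genes had at most 3 reads in the 3 CPA1 libraries together and at least 100 in the CPA18 libraries. Lcn2 (lipocalin 2, an iron-scavenging protein of the acute phase) had 1, 0 and 2 reads at CPA1 and 41, 476 and 175 at CPA18, with 0, 2 and 5 in the control. Saa3, another acute-phase gene, whose reads are uncertain because it has close paralogs, had 0, 1 and 0 reads at CPA1 and 2, 113 and 54 at CPA18. Acox2, a peroxisomal oxidase of branched chains and bile acid precursors, had 1, 0 and 2 reads and then 23, 188 and 112. Hhipl1 had 0, 1 and 1 reads and then 27, 111 and 75, Otog had 0, 1 and 1 and then 18, 90 and 56, and Mef2b had 0, 0 and 3 and then 6, 89 and 25. All 6 had more reads at CPA18 in each batch, which largely follows from how they were chosen. These read counts are not scaled for depth. In Ribo-seq Lcn2 had 0, 1 and 3 reads at CPA1 and 18, 39 and 56 at CPA18, Hhipl1 had 0, 0 and 1 and then 10, 24 and 44, and Acox2 had 0 in each and then 8, 16 and 45. Mef2b had none at CPA1 and 1, 6 and 10 reads at CPA18. Saa3 (0, 1 and 0, then 0, 4 and 9) and Otog (0 in each, then 0, 10 and 17) had no Ribo-seq read in batch 1 at either time.

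Atf3, a stress-induced transcription factor, was left out because the control of batch 1 had no read of it. It had 100, 74 and 139 reads at CPA1, 115, 878 and 374 at CPA18 and 0, 15 and 7 in the control, and its log2 fold change from CPA1 to CPA18 was 0.86 ± 0.23 (adjusted p = 0.0023, edgeR without the filter). Every CPA1 library had more reads of it than any control library. Of the 9 immediate early genes left out, the fit without the filter called 4 decreased and 1 increased, and Fosl1, Klf2, Ccn1 and Ccn2 did not pass. Egr2 (13, 14 and 4 reads, then 0, 4 and 2), Egr3 (5, 5 and 14, then 0, 2 and 0) and Nr4a3 (21, 15 and 5, then 0, 5 and 2) had fewer reads at CPA18 in each batch, and Klf4 fell too (-1.95 ± 0.41, adjusted p = 5.4e-05). Ier3 rose (18, 18 and 49 reads, then 23, 211 and 99; 0.78 ± 0.29, adjusted p = 0.0473). Fgf21 had 1, 0 and 0 reads at CPA1 and 0, 12 and 4 at CPA18, and Gdf15 had 1, 0 and 0 and then 0, 8 and 3, too few to judge either of these secreted stress factors.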
